A study of Zea mays with 2 samples.

Results

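The nicotianamine and phytosiderophore synthesis genes described here are 5 features of the maize count matrices, chosen by name: NAS1 (Zm00001d047651), NAS2 (Zm00001d028888), NAS9 (Zm00001d028887), NAAT1 (Zm00001d053281) and TAAT (Zm00001d016441). They are 5 of 46430 features. Protoplasts from the distal 6 cm of leaf 2 of B73 seedlings at growth stage V2 were sequenced as single cells in droplets, where every captured mRNA molecule receives a unique molecular identifier (UMI) and every droplet a barcode. The 2 libraries had the same genotype and tissue with no treatment, each came from a pool of 6 plants, and by the study's methods the plants were grown at different times. Library 1 held 7340 barcodes with 88081896 UMIs (median 10308 per barcode) and library 2 held 6104 barcodes with 41924567 UMIs (median 5912). All deposited barcodes were used. The libraries shared 11 barcode sequences, of which 0 were NAS-positive as defined below.

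Grasses acquire iron by secreting phytosiderophores, small chelators that bind ferric iron and are taken up again as the iron complex. Nicotianamine synthase (NAS) joins molecules of S-adenosylmethionine into nicotianamine, which also carries iron, zinc and copper inside the plant and is the precursor of the phytosiderophores. Nicotianamine aminotransferase (NAAT) then converts nicotianamine to a keto intermediate that is reduced to deoxymugineic acid. Each round of nicotianamine synthesis releases methylthioadenosine, which the methionine salvage pathway recycles. NAS1, NAS2 and NAS9 are annotated as nicotianamine synthases, NAAT1 as nicotianamine aminotransferase and TAAT as tyrosine aminotransferase, the enzyme family to which NAAT belongs. NAS copies are close paralogs. How the counting divided reads between them was not checked, so the split of UMIs among NAS genes is uncertain.

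The 3 synthase genes were rare in both libraries and the 2 aminotransferase genes were more widespread. NAS1 had 177 UMIs in library 1 (2.01 CPM, the UMIs of a gene scaled to a common total, exact 95% Poisson interval 1.72 to 2.33) and 28 in library 2 (0.668 CPM, 0.444 to 0.965). NAS2 had 143 UMIs in library 1 (1.62 CPM) and 7 in library 2 (0.167 CPM). NAS9 had 179 UMIs in library 1 (2.03 CPM) and 8 in library 2 (0.191 CPM). All 3 were thus lower in library 2 by more than the counting error, and within library 1 the intervals of NAS1 and NAS9 overlapped. NAAT1 had 4282 UMIs in library 1 (48.6 CPM, 47.2 to 50.1) and 176 in library 2 (4.20 CPM, 3.60 to 4.87). TAAT had 4022 UMIs in library 1 (45.7 CPM, 44.3 to 47.1) and 884 in library 2 (21.1 CPM, 19.7 to 22.5). NAAT1 was therefore the member with the highest CPM ratio of library 1 over library 2, 11.6 (exact interval 9.96 to 13.5), and TAAT the one with the lowest, 2.17 (2.01 to 2.33). The ratio was 3.01 (2.01 to 4.66) for NAS1, 9.72 (4.60 to 24.6) for NAS2 and 10.6 (5.29 to 25.0) for NAS9. The intervals overlap that of NAAT1 for NAS2 and NAS9 but not for NAS1. The NAS1 ratio rests on 1 barcode, which held 23 of its 28 UMIs in library 2. The share of barcodes with NAS1 was 0.477% in library 1 and 0.0819% in library 2, and that with NAS2 was 0.490% and 0.0655%. These intervals cover counting error only. With 1 library on each side no test between the libraries was possible, and the pool of plants and the growth time cannot be told apart. With barcodes reduced to 3000 UMIs each, NAAT1 was at 46.6 CPM in library 1 and 4.12 CPM in library 2. TAAT was then at 44.7 and 19.9 CPM. The part of depth was not otherwise tested.

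NAS1 was detected, with 1 or more UMIs, in 35 barcodes of library 1 (0.477%, exact Clopper-Pearson interval 0.332 to 0.663) and 5 of library 2 (0.0819%, 0.0266 to 0.191). NAS2 was detected in 36 barcodes of library 1 and 4 of library 2, and NAS9 in 47 of library 1 and 3 of library 2. NAAT1 was detected in 473 barcodes of library 1 (6.44%, 5.89 to 7.03) and 98 of library 2 (1.61%, 1.31 to 1.95). TAAT was detected in 1051 barcodes of library 1 (14.3%, 13.5 to 15.1) and 616 of library 2 (10.1%, 9.35 to 10.9). Since library 1 was deeper, barcodes were also thinned to 3000 UMIs each, leaving 4640 barcodes of library 1 and 4365 of library 2. NAAT1 was then found in 3.12% of library 1 and 0.916% of library 2, and TAAT in 6.77% of library 1 and 5.22% of library 2. The libraries therefore differed more in NAAT1 than in TAAT at equal depth as well.

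The genes differed in the share of their UMIs that lay in the highest barcodes. In library 1 the 10 highest barcodes held 80.2% of NAS1, 69.2% of NAS2, 60.9% of NAS9, 37.7% of NAAT1 and 23.7% of TAAT UMIs. The genes were detected in 35, 36, 47, 473 and 1051 barcodes in that order, which bears on these shares. The variance of UMIs per barcode over their mean ordered them otherwise. It was 92.1 for NAAT1 and 35.8 for TAAT, against 8.19 to 16.2 for the synthases. NAS1 was at 0 in 7305 barcodes of library 1, at 1 UMI in 19, at 2 in 4, at 3 to 9 in 6, at 10 to 29 in 5 and at 32 in 1. NAS2 reached 25 UMIs and NAS9 reached 17. Most NAS-detecting barcodes thus held 1 or 2 molecules, and a few held 10 or more. NAAT1 spanned the widest range, with 336 barcodes of library 1 at 1 UMI, 37 at 2, 39 at 3 to 9, 23 at 10 to 29, 25 at 30 to 99 and 13 at 100 or more, up to 221. The upper bins of NAAT1 did not thin out the way those of TAAT did. TAAT had most of its barcodes at 1 UMI and 3 at 100 or more, up to 163. In library 2 the highest barcodes held 23 UMIs of NAS1, 4 of NAS2, 6 of NAS9, 30 of NAAT1 and 12 of TAAT. In library 2, TAAT had 10.1% of its barcodes positive with 7.81% of UMIs in the highest 10, a dispersed pattern, while NAAT1 had 50.0% of its UMIs in the highest 10.

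**Figure D1:**
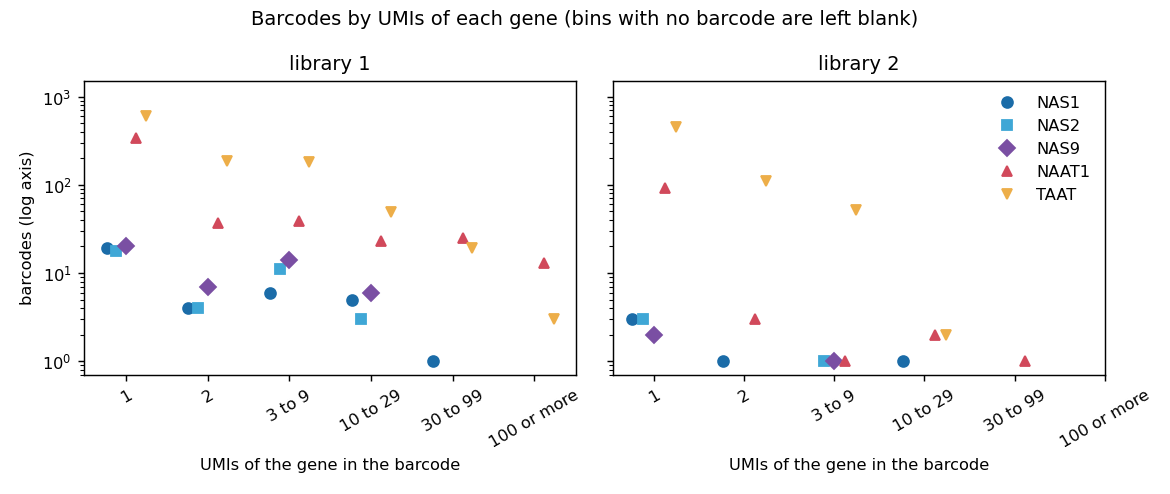
Number of barcodes (log axis) in each bin of UMIs per barcode for NAS1, NAS2, NAS9, NAAT1 and TAAT, in library 1 (left panel) and library 2 (right panel). In library 1 NAAT1 had 23 barcodes at 10 to 29 UMIs, 25 at 30 to 99 and 13 at 100 or more, while in library 2 only 3 barcodes held 10 or more.

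Barcodes were called NAS-positive when NAS1, NAS2 and NAS9 summed to 3 or more UMIs. Library 1 had 30 such barcodes (0.431% of its PEP1-class barcodes, 0.291 to 0.614; the class is defined below) and library 2 had 1 (0.0169%, 0.000429 to 0.0943). The threshold sits inside a continuous range, since 5 barcodes of library 1 held 2 NAS UMIs and 35 held 1. The 30 barcodes made up 0.759% of all UMIs of library 1 and held 93.8% of NAS1, 90.2% of NAS2 and 88.8% of NAS9 UMIs, shares that follow from the threshold. They also held 65.2% of NAAT1 and 39.7% of TAAT UMIs, which the threshold did not use. These shares are not independent evidence. On these data the study had named NAAT1 and TAAT as cluster markers, and NAS1, NAS2 and NAS9 as specific to a mesophyll cluster. The study did not find that cluster in its data set B. It regarded the cluster as a likely artifact of how the plants of data set A were grown.

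Every one of the 30 NAS-positive barcodes of library 1 had both aminotransferase transcripts. NAAT1 ranged over 7 to 221 UMIs (median 88.5) and TAAT over 8 to 163 (median 46.5). In the same barcodes NAS1 had a median of 1.5 UMIs, NAS2 of 2 and NAS9 of 4, so that NAAT1 was the most abundant of the 5 by UMIs in most of them. NAAT1 exceeded TAAT in 26 of 30. The barcode with the most NAS UMIs in library 1 had 32 NAS1, 16 NAS2, 13 NAS9, 186 NAAT1 and 163 TAAT UMIs among 32424 UMIs. The barcode with the most NAAT1 had 27 NAS1, 8 NAS2, 9 NAS9, 221 NAAT1 and 155 TAAT UMIs. Both held high levels of all members, while other NAS-positive barcodes were uneven. One had 7 NAS1, 0 NAS2, 0 NAS9, 55 NAAT1 and 29 TAAT UMIs, and another had 0 NAS1, 10 NAS2, 4 NAS9, 39 NAAT1 and 48 TAAT UMIs. NAS1 led the synthases in 10 of the 30 barcodes, NAS2 in 5 and NAS9 in 11, with 4 ties. No single synthase gene was the leader throughout. The NAS-positive barcode of library 2 had 23 NAS1, 4 NAS2, 6 NAS9, 29 NAAT1 and 4 TAAT UMIs among 9645 UMIs. All 5 members were found together in 19 barcodes of library 1 and in this 1 of library 2.

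**Figure D2:**
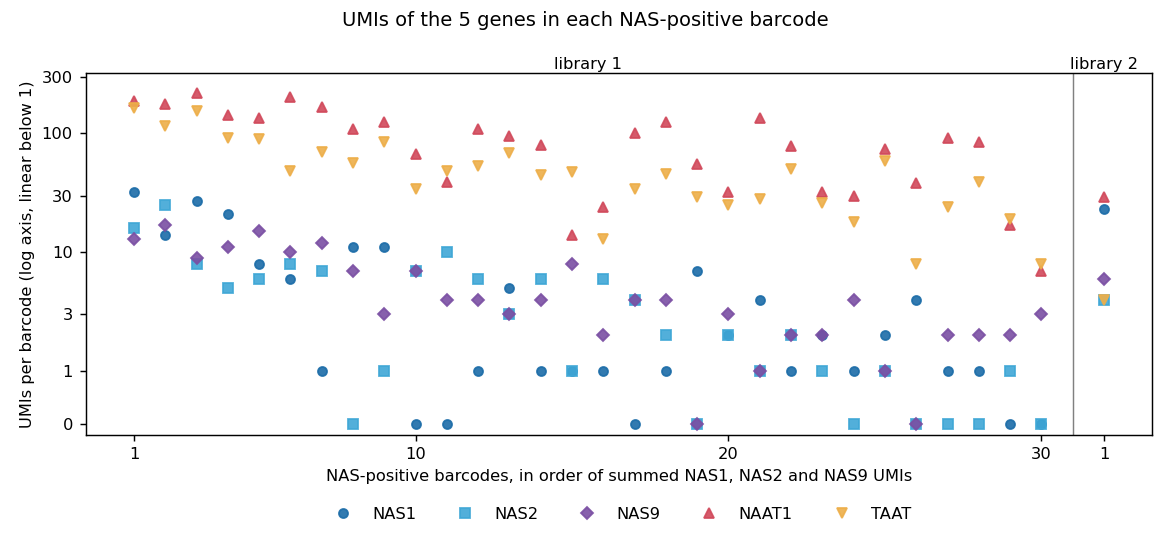
UMIs per barcode (log axis, linear below 1) of NAS1, NAS2, NAS9, NAAT1 and TAAT in the 30 NAS-positive barcodes of library 1 and the 1 of library 2, ordered within a library by summed NAS UMIs. NAAT1 ranged over 7 to 221 UMIs in library 1 and lay above TAAT in 26 of 30 barcodes.

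Most barcodes with a synthase transcript also held the aminotransferases, while few barcodes with an aminotransferase transcript held a synthase. The study had singled out these genes on the same data, so their co-detection is not independent evidence. In library 1, 32 of the 35 NAS1 barcodes also held NAAT1 (91.4%, exact interval 76.9 to 98.2), against 6.04% of the barcodes without NAS1. NAAT1 was present in 29 of 36 NAS2 barcodes (80.6%, 64.0 to 91.8) and 41 of 47 NAS9 barcodes (87.2%, 74.3 to 95.2). TAAT was present in 32 of 35 NAS1, 32 of 36 NAS2 and 36 of 47 NAS9 barcodes. Only 6.77% of NAAT1 barcodes held NAS1, 6.13% held NAS2 and 8.67% held NAS9, and fewer than 4% of TAAT barcodes held any given synthase (3.04%, 3.04% and 3.43%). Among the synthases, 19 barcodes shared NAS1 and NAS2, 24 shared NAS1 and NAS9 and 24 shared NAS2 and NAS9, 54.3% (36.6 to 71.2), 68.6% (50.7 to 83.1) and 66.7% (49.0 to 81.4) of the first-named gene's barcodes. NAAT1 and TAAT shared 184 barcodes, 38.9% of those with NAAT1 and 17.5% of those with TAAT. Where 3 or more UMIs were required of both, 75% of NAAT1 barcodes held TAAT. In PEP1-class barcodes thinned to 3000 UMIs, 11 of 13 NAS1, 14 of 15 NAS2 and 18 of 18 NAS9 barcodes of library 1 still held NAAT1.

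Library 2 offered few barcodes for the same question. Of its 5 NAS1 barcodes 2 held NAAT1, of its 4 NAS2 barcodes 1 did and of its 3 NAS9 barcodes 1 did. The NAS-positive barcode accounted for 1 detection of each synthase. The other NAS detections of library 2 were of 1 or 2 UMIs. NAAT1 and TAAT shared 23 barcodes, 23.5% of those with NAAT1 (15.5 to 33.1) and 3.73% of those with TAAT. The share of NAAT1 barcodes holding TAAT was higher than the 9.87% of barcodes without NAAT1 that held it, and NAAT1 barcodes were the deeper ones. The median depth was 10245 UMIs in the 91 barcodes with 1 NAAT1 UMI, against 5840.5 in those with 0.

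NAAT1 and TAAT levels were higher in barcodes where more synthase genes were detected. In library 1 NAAT1 had a median of 0 UMIs in the 7270 barcodes with 0 of the 3 synthases, 2.00 in the 41 with 1, 56.5 in the 10 with 2 and 124 in the 19 with all 3. TAAT medians were 0, 1.00, 34.0 and 53.0 in the same order. Median depth also increased, at 10176, 16833, 19797.5 and 25306 UMIs. Read by summed NAS UMIs, NAAT1 was at 12.5 CPM in barcodes with 0, 537 CPM with 1, 1516.6 CPM with 2, 3283.2 CPM with 3 to 9, 4297.1 CPM with 10 to 29 and 6025.2 CPM with 30 or more. TAAT was at 25.8, 211, 1066.1, 1510.4, 2425.3 and 4351.1 CPM over the same bands. CPM is scaled to the UMIs of each band, so these levels are relative to depth. The bands of 2 and of 30 or more NAS UMIs held 5 and 4 barcodes.

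High NAAT1 also occurred without the synthases. Of 61 barcodes of library 1 with 10 or more NAAT1 UMIs, 23 had 0 NAS UMIs, 9 had 1 or 2 and 29 had 3 or more. With 30 or more NAAT1 UMIs, 5 of 38 had 0 NAS UMIs, and the highest of these held 63 NAAT1 and 16 TAAT UMIs among 26371. All 13 barcodes with 100 or more NAAT1 UMIs held NAS transcripts (6 to 61). In library 2, 3 barcodes held 10 or more NAAT1 UMIs. The highest of them, with 30 NAAT1 UMIs, had 0 NAS and 1 TAAT UMI, another with 17 had 2 NAS1 and 2 TAAT UMIs, and the third was the NAS-positive barcode with 29. High NAAT1 thus did not require detected NAS transcripts in either library.

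**Figure D3:**
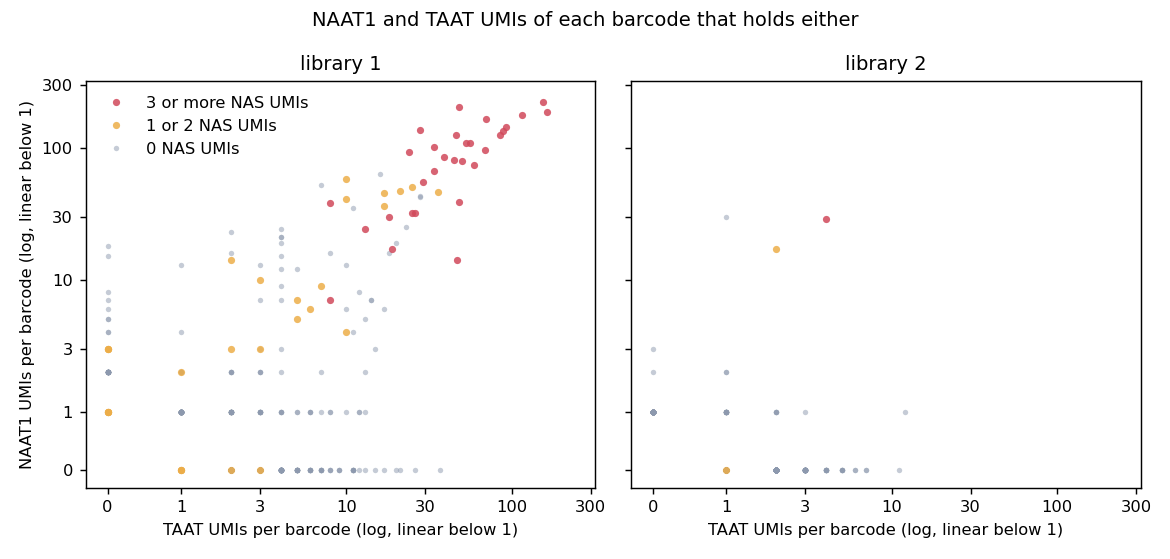
NAAT1 against TAAT UMIs in every barcode that held either (both axes logarithmic, linear below 1), in library 1 (left panel) and library 2 (right panel), coloured by summed NAS1, NAS2 and NAS9 UMIs. The 30 NAS-positive barcodes of library 1 lie at 7 or more NAAT1 and 8 or more TAAT UMIs, while TAAT reached 37 UMIs in barcodes with 0 NAS UMIs.

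NAAT1 and TAAT differed in how far their UMIs depended on these barcodes. The ratio of NAAT1 to TAAT UMIs was 1.75 in the NAS-positive barcodes of library 1, against 0.486 in barcodes with 0 NAS UMIs. In library 2 it was 7.25 in the NAS-positive barcode, against 0.148 in NAS-free barcodes. TAAT was the more abundant gene outside the NAS-positive barcodes of both libraries. Across all 7340 barcodes of library 1 NAAT1 and TAAT (UMIs per 10000, log2 scale) had a Pearson r of 0.49, which was 0.23 over the 7270 barcodes without NAS UMIs. In library 2 it was 0.05 over 6104 barcodes. Within the 30 NAS-positive barcodes of library 1 NAAT1 and TAAT had r = 0.64, NAS2 and NAS9 0.63, NAS1 and TAAT 0.61, NAS9 and TAAT 0.56, NAS1 and NAAT1 0.54, NAS2 and TAAT 0.54, NAS2 and NAAT1 0.36, NAS9 and NAAT1 0.25, NAS1 and NAS9 0.20, and NAS1 and NAS2 0.12. These barcodes were chosen on the NAS sum, which bears on the pairs of synthases. Barcodes share 1 library, and these values describe it without a test.

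Cell class was read from PEP1 (Zm00001d046170), phosphoenolpyruvate carboxylase of the mesophyll, and ME1 (Zm00001d000316), NADP-dependent malic enzyme of the bundle sheath. A barcode was assigned to the ME1 class when ME1 UMIs exceeded PEP1 UMIs, and to the PEP1 class in the opposite case. Library 1 had 269 ME1-class barcodes (median 2017 UMIs) and 6967 PEP1-class barcodes (median 11296). Library 2 had 93 ME1-class barcodes (median 2998) and 5904 PEP1-class barcodes (median 6044). Ties (61 barcodes in library 1, 13 in library 2) and barcodes without either gene (43 in library 1, 94 in library 2) had no class. The other markers followed the class. Mesophyll CAH1, carbonic anhydrase, was at 310 CPM in the ME1 class and 6835.7 CPM in the PEP1 class of library 1, and bundle sheath RBCS1, the Rubisco small subunit, at 23859.7 CPM and 124 CPM. The ME1 class also carried the SWEET13 sucrose transporters of abaxial bundle sheath and phloem parenchyma (7167 UMIs in library 1, 1892 in library 2).

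All barcodes with NAS1, NAS2 or NAS9 belonged to the PEP1 class, 70 in library 1 and 10 in library 2. That class was 6967 of all 7340 barcodes in library 1 and 5904 of 6104 in library 2. It was also the deeper class, so few such barcodes could be looked for outside it. In the ME1 class the 3 synthases were at 0 in both libraries. A count of 0 allows up to 3 UMIs, or 1.49 CPM in library 1, and the exact 95% upper limit is 1.83 CPM. In the PEP1 class of library 1 NAS1 was at 2.06, NAS2 at 1.66 and NAS9 at 2.08 CPM. Over UMIs, the exact upper limit of the ratio of the ME1 class over the PEP1 class was 0.899 for NAS1, 0.889 for NAS9 and 1.12 for NAS2. These limits take UMIs as independent, while most UMIs of each synthase lay in few barcodes. Over barcodes, 0 of 269 in the ME1 class allows a share of up to 1.36%. The PEP1-class shares of NAS1, NAS2 and NAS9 were below that, at 0.502%, 0.517% and 0.675%. The ME1 class was also shallower, so a difference was not detectable in library 1 for any of the 3. In library 2 a count of 0 allows 5.14 CPM, above the PEP1-class level of each synthase, and a difference was not detectable at this depth for any of the 3. NAAT1 was found in 11 ME1-class barcodes of library 1 (4.09%, 2.06 to 7.20) and 1 of library 2, with at most 2 UMIs, against 461 PEP1-class barcodes of library 1 (6.62%) and 96 of library 2. TAAT was found in 8 ME1-class barcodes of library 1 (2.97%, 1.29 to 5.78) and 6 of library 2, with at most 2 UMIs, against 1040 and 610 PEP1-class barcodes. Thinned to 3000 UMIs, NAAT1 was in 1.87% of 107 ME1-class and 3.16% of 4526 PEP1-class barcodes of library 1, and TAAT in 1.87% and 6.89%. In library 2 both were in 0 of 46 ME1-class barcodes, which allows shares of up to 7.71% by the exact interval, against 0.927% and 5.28% of 4315 PEP1-class barcodes. Single UMIs of the aminotransferases thus occurred in both classes, and free RNA as their source was not tested.

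**Figure D4:**
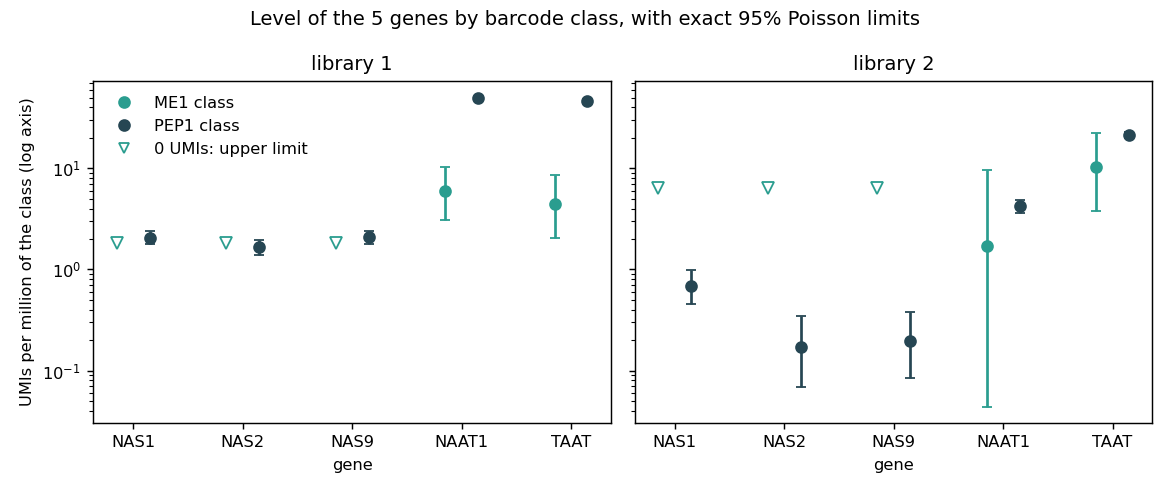
CPM within each class (log axis) for the 5 genes in ME1-class and PEP1-class barcodes of library 1 (left panel) and library 2 (right panel), with exact 95% Poisson limits. Open triangles mark the upper limit where the ME1 class had 0 UMIs, as for all 3 synthases, and NAAT1 was at 5.96 CPM in the ME1 class against 49.7 CPM in the PEP1 class of library 1.

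Both aminotransferases were lower in the ME1 class. NAAT1 was at 5.96 CPM in the ME1 class and 49.7 CPM in the PEP1 class of library 1, and at 1.71 CPM (1 UMI) and 4.22 CPM in library 2. TAAT was at 4.47 CPM in the ME1 class and 46.7 CPM in the PEP1 class of library 1, and at 10.3 CPM and 21.3 CPM in library 2. In library 2 the ratio of the ME1 class over the PEP1 class had an exact interval of 0.0102 to 2.29 for NAAT1 and 0.177 to 1.06 for TAAT, which include 1. In edgeR's quasi-likelihood test on sums per library and class, the log2 fold change was -2.86 ± 0.45 for NAAT1 (SE, adjusted p = 0.00920, lower in 2 of 2 libraries) and -2.58 ± 0.55 for TAAT (adjusted p = 0.0354, lower in 2 of 2). NAS1 had an adjusted p of 0.115, and NAS2 and NAS9 did not pass the filter on low counts. Of the 3 members tested 2 were thus called lower and 0 higher, where 16.8% of all 17332 genes were called, 8.35% lower and 8.46% higher. DESeq2 called 16.3% of genes, 8.47% lower, and edgeR at an unadjusted p under 0.05 gave 33.4%. Without the NAS-positive barcodes, an alternative added after the data were seen, the log2 fold change of NAAT1 was -1.44 (adjusted p = 0.0453) and that of TAAT -2.07 (adjusted p = 0.0289). The adjusted p of NAAT1 ranged over 3.83e-06 to 0.212 among the alternatives and that of TAAT over 1.62e-06 to 0.0627. The 0.212 was the fit without a library term, where the log2 fold change was -2.49. TAAT lost its call with the study's barcode filter (-2.96, adjusted p = 0.0627) and with a stricter class rule (-2.63, adjusted p = 0.0539), at values as large as the one reported. The ME1 class was shallower, had 6.60% of UMIs from the chloroplast genome in its median barcode of library 1 against 2.38% in the PEP1 class, and the part of these in the result was not tested. Of the other listed genes tested between the classes, 1 of 8 SAM and methionine genes was higher, 0 of 5 methionine salvage genes passed, 2 of 6 sulfate assimilation genes were higher and 1 lower, 2 of 5 metal transport genes were higher and 2 lower, 1 of 4 metal storage genes was higher and 1 lower, and 1 of 2 oxidoreductase and bHLH genes was lower. The iron-phytosiderophore transporter gene YS1 was at 19.9 CPM in the ME1 class and 81.3 CPM in the PEP1 class of library 1, and at 54.9 and 78.8 CPM in library 2, and did not pass (log2 fold change -1.35, edgeR adjusted p = 0.0788). It passed with the study's barcode filter (-3.11, adjusted p = 0.0108), with 10 UMIs required in every sum (3.75e-05), with edgeR's default fit (0.000867) and with DESeq2 (0.0201).

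The NAS-positive barcodes kept mesophyll markers. In library 1 they had 27 to 194 PEP1 UMIs (median 67.0) and 0 to 2 ME1 UMIs. PEP1 stood at 3543.7 CPM in NAS-positive and 3931.5 CPM in NAS-free PEP1-class barcodes of library 1, and CAH1 at 7492.9 and 6825.6 CPM. SWEET13a, SWEET13b, SWEET13c and the companion cell sucrose transporter SUT1 were at 0 in the NAS-positive barcodes of both libraries. A count of 0 allows 4.49 CPM in library 1 and 311 CPM in library 2, above their NAS-free levels (at most 2.46 CPM in library 1), so a difference from NAS-free barcodes was not detectable. The median NAS-positive barcode of library 1 had 21355.5 UMIs and 4390 genes, against 11156 UMIs and 2990 genes in NAS-free ones, and 29 of the 30 passed the study's stated filter thresholds. No doublet caller was run.

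Values outside the defining genes were compared between NAS-positive and NAS-free PEP1-class barcodes. The study had named NAAT1 and TAAT as cluster markers on these data, so their direction is not independent evidence. NAAT1 was at 4181.2 CPM in NAS-positive and 12.7 CPM in NAS-free barcodes of library 1, a ratio of 329 (exact interval 306 to 353), and at 3006.7 CPM and 3.11 CPM in library 2, a ratio of 966 (622 to 1454.3). TAAT was at 2386.9 CPM in NAS-positive and 26.3 CPM in NAS-free barcodes of library 1 (ratio 90.7, 85 to 96.8), and at 415 CPM (4 UMIs) and 21.2 CPM in library 2 (ratio 19.6, 5.32 to 50.3). The intervals cover counting error only, and the library 2 side is 1 barcode. Barcodes of library 2 with 0 NAS UMIs held up to 30 NAAT1 and 12 TAAT UMIs, against 29 and 4 in that barcode. For NAAT1 this upper end was 1 barcode, since 2 of the NAS-free barcodes held 3 or more NAAT1 UMIs and 1 held 10 or more. The test across genes called neither NAAT1 nor TAAT. The NAS-positive sum of library 2 is 1 barcode, and in edgeR's quasi-likelihood test 0 of 16281 genes passed (0% called), with 97 at an unadjusted p under 0.05 (0.596%, of which 0.178% higher and 0.418% lower). The edgeR log2 fold change was 8.34 ± 1.45 for NAAT1 (SE, adjusted p = 1.00) and 5.17 ± 1.53 for TAAT (SE, adjusted p = 1.00), and both genes were among those 97. edgeR's default form of the same fit called 35 genes (0.215%, with 0.0983% lower) and DESeq2 called 23 (0.141%, with 0.0246% lower). NAAT1 passed in both of these (adjusted p = 0.00156 and 1.02e-49), and TAAT in DESeq2 alone (3.75e-05, against 0.436 in the default fit). The default fit was set aside because it made 113 to 209 false calls per draw on simulated sums of this comparison, more than it recovered of 200 changed genes. Both genes were higher in 2 of 2 libraries. Over all alternatives the adjusted p of NAAT1 ranged over 1.02e-49 to 1.00 and that of TAAT over 3.75e-05 to 1.00.

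Other nicotianamine synthase genes were split. NAS10 (Zm00001d047658) had 260 UMIs in library 1, of which 245 lay in 24 of the 30 NAS-positive barcodes, and 13 in library 2, of which 11 lay in the NAS-positive barcode. Its log2 fold change was 12.28 ± 0.91 (SE, edgeR adjusted p = 0.189, with 4.65e-46 to 0.224 over the alternatives). NAS6 (Zm00001d047639) had 260 UMIs in library 1, of which 254 lay in 8 NAS-positive barcodes and 127 in 1 of them, and 3 UMIs in library 2, none in the NAS-positive barcode. NAS10 UMIs thus lay mostly in the NAS-positive barcodes of both libraries, which is 1 barcode in library 2. The study had named NAS10 with NAS1, NAS2 and NAS9 on these data. How reads were divided between NAS paralogs was not checked, so the NAS10 values are not independent evidence. NAS6 UMIs lay mostly in 8 barcodes of library 1. All 14 UMIs of NAS3 (Zm00001d033496) lay in 1 PEP1-class barcode of library 1 with 0 UMIs of NAS1, NAS2, NAS9 and NAAT1.

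Genes of methionine salvage, which regenerates the methionine consumed by nicotianamine synthesis, were listed with genes that supply S-adenosylmethionine (SAM). Several were picked by the study on these samples, so their direction is not independent evidence. Of 5 salvage genes 0 passed the edgeR test and 4 were higher at an unadjusted p under 0.05. Of all 16281 genes tested 0 passed and 0.178% were higher at an unadjusted p under 0.05. The median log2 fold change of the 5 was 5.72, against -0.30 over all genes tested. A methylthioribose-1-phosphate isomerase (Zm00001d049042) was at 587 CPM in NAS-positive and 3.69 CPM in NAS-free barcodes of library 1, and at 311 CPM (3 UMIs) and 0.730 CPM in library 2, where the ratio was 426 (83.2 to 1370.7). An adenine phosphoribosyltransferase (Zm00001d030895) was at 1920.0 CPM in NAS-positive and 24.1 CPM in NAS-free barcodes of library 1, and at 1762.6 and 18.9 CPM in library 2. A methylthioribulose-1-phosphate dehydratase/enolase-phosphatase (Zm00001d049191) was at 1595.2 CPM in NAS-positive and 20.4 CPM in NAS-free barcodes of library 1, and at 726 CPM and 7.69 CPM in library 2. The enolase-phosphatase Zm00001d040220 had similar values on both sides in library 1, 59.9 CPM in NAS-positive and 62.5 CPM in NAS-free barcodes (ratio 0.957, 0.683 to 1.31). The other adenine phosphoribosyltransferase (Zm00001d041352) was at 886 CPM in NAS-positive and 80.4 CPM in NAS-free barcodes of library 1, and at 829 and 73.9 CPM in library 2. Thus 4 of the 5 salvage genes had higher values in the NAS-positive barcodes of library 1 and in the 1 of library 2.

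Of the 8 SAM and methionine genes 0 passed and 3 were higher at an unadjusted p under 0.05, against 0.178% of all genes tested. The median log2 fold change of the 8 was -0.22. A SAM synthase (Zm00001d010920) was at 892 CPM in NAS-positive and 12.3 CPM in NAS-free barcodes of library 1, and another (Zm00001d024754) at 86.8 and 4.10 CPM. Both had 0 UMIs in the NAS-positive barcode of library 2, whose 9645 UMIs allow up to 311 CPM, above the NAS-free level. The third SAM synthase (Zm00001d009146) was at 102 CPM in NAS-positive and 89.3 CPM in NAS-free barcodes of library 1. A cystathionine gamma-synthase (Zm00001d047166), an enzyme of methionine synthesis, was at 365 CPM in NAS-positive and 41.5 CPM in NAS-free barcodes of library 1, and at 207 CPM (2 UMIs) and 23.7 CPM in library 2 (ratio 8.73, 1.06 to 31.6). Other genes of this list were at lower values in library 1. The homocysteine S-methyltransferase Zm00001d048060 was at 38.9 CPM in NAS-positive and 110 CPM in NAS-free barcodes (ratio 0.355, 0.232 to 0.520), the other cystathionine gamma-synthase (Zm00001d029324) had a ratio of 0.529 (0.318 to 0.828) and the adenosylhomocysteinase (Zm00001d049239) one of 0.332 (0.0683 to 0.972). Of 6 sulfate assimilation genes 0 passed and 0 had an unadjusted p under 0.05, against 0.596% of all genes tested. The median of the 6 was -0.12.

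Of 5 metal transport genes 0 passed and 1 was higher at an unadjusted p under 0.05 in the edgeR test, against 0.178% of all genes tested. The higher one was YS1, the plasma membrane transporter of the iron-phytosiderophore complex. The study had named YS1 on these data, and several other listed genes were picked by the study on these samples. Their direction is therefore not independent evidence. YS1 was at 464 CPM in NAS-positive and 75.7 CPM in NAS-free barcodes of library 1 (ratio 6.13, 5.45 to 6.87), and at 2281.0 CPM (22 UMIs) and 77.1 CPM in library 2 (ratio 29.6, 18.5 to 44.9). The library 2 value is 1 barcode, and barcodes of that library with 0 NAS UMIs held up to 78 YS1 UMIs, with YS1 in 877 of them, so it lies within their range. In library 1 it ranged over 0 to 66 UMIs (median 3.00) in NAS-positive barcodes and was at 0 in 4 of them. YS1 was otherwise widespread, and the NAS-positive barcodes held 4.41% of its UMIs in library 1. The metal-nicotianamine transporter gene YSL7 was at 52.4 CPM in NAS-positive and 60.2 CPM in NAS-free barcodes of library 1. A ZIP zinc/iron transport family gene (Zm00001d019228) had a ratio of 0.468 (0.188 to 0.965) there. Of the 5 metal transport genes 2 had a log2 fold change above 0. The median of the 5 was -0.66, against -0.30 over all genes tested. Of 4 metal storage genes 0 passed and 1 was higher at an unadjusted p under 0.05 in the edgeR test. The median log2 fold change of the 4 was -0.35. The metallothionein genes MT1b and Zm00001d029778 had ratios of 1.56 and 1.23 in library 1. In library 2 their ratios were 0.509 (0.0617 to 1.84) and 0.657 (0.300 to 1.25). The metallothionein-like gene Zm00001d029546 was at 2038.2 CPM in NAS-positive and 42.4 CPM in NAS-free barcodes of library 1, and at 1451.5 and 44.2 CPM in library 2, whereas a ferritin (Zm00001d052316), the iron storage protein, was at 83.8 and 99.5 CPM in library 1. An NAD(P)-linked oxidoreductase superfamily gene (Zm00001d028360) was at 2003.8 CPM in NAS-positive and 55.1 CPM in NAS-free barcodes of library 1, and at 2281.0 and 56.6 CPM in library 2. A bHLH transcription factor gene (Zm00001d029339) was at 223 CPM in NAS-positive and 61.3 CPM in NAS-free barcodes of library 1 and at 311 CPM (3 UMIs) and 83.7 CPM in library 2.

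**Figure D5:**
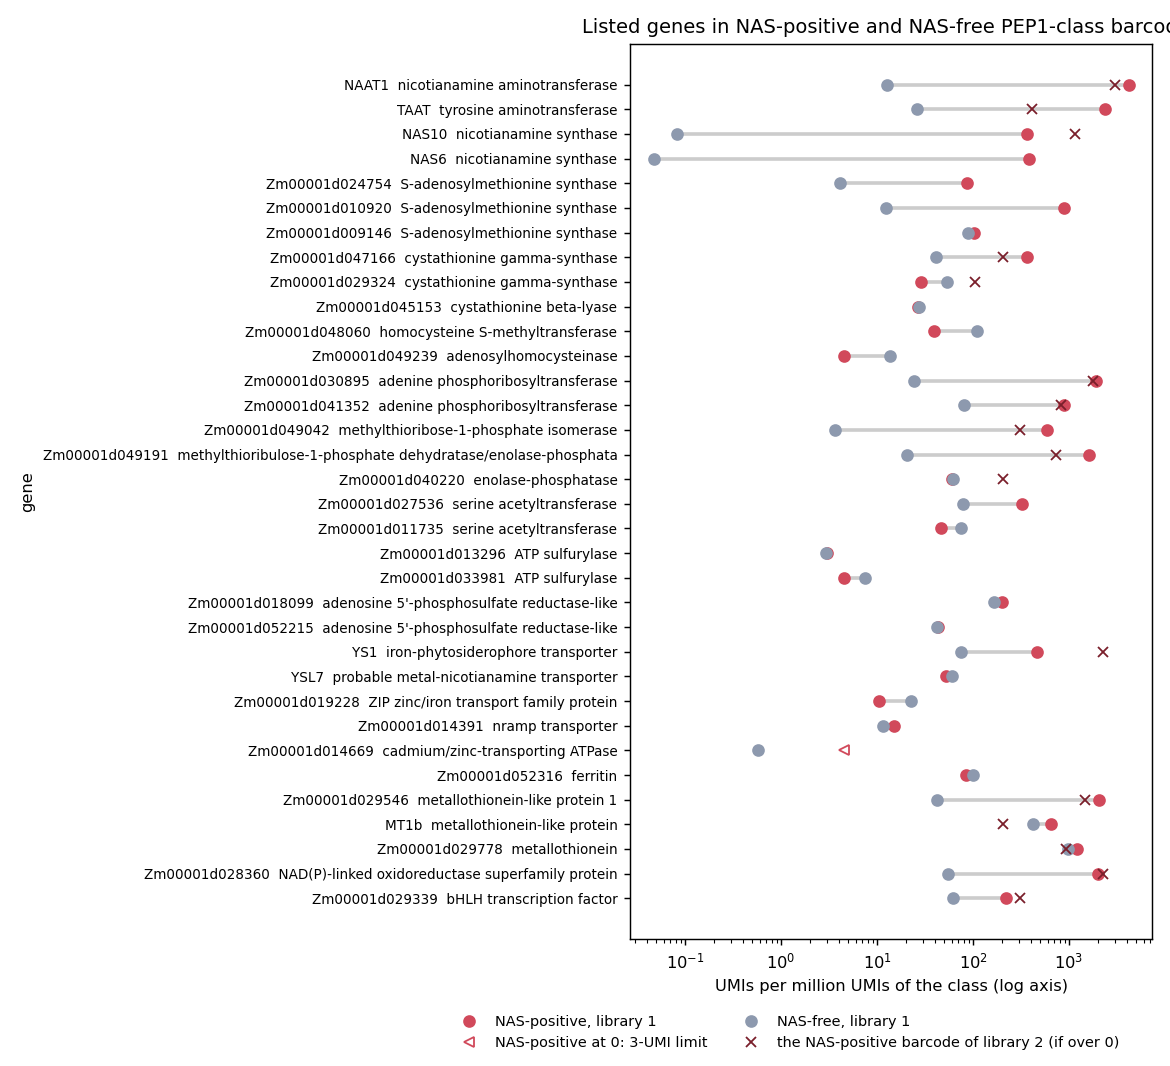
CPM (log axis) of the listed genes in NAS-positive and NAS-free PEP1-class barcodes of library 1 (filled circles), with crosses for the 1 NAS-positive barcode of library 2 where it held the gene. NAAT1, NAS10 and the salvage genes Zm00001d049042, Zm00001d030895 and Zm00001d049191 lie far to the right in NAS-positive barcodes, while ferritin (Zm00001d052316), at 83.8 and 99.5 CPM, does not.

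The genes whose pattern was most like the mean of the 5 members were ranked by Pearson r of log2(1 + UMIs per 10000) over barcodes with more than 500 genes. In library 1 (6311 barcodes, 18199 genes ranked) the leading genes were NAS10 (0.68), Zm00001d049042 (0.67), Zm00001d030895 (0.60), Zm00001d049191 (0.55), Zm00001d019221 (0.50), Zm00001d031621 (0.50), Zm00001d045965 (0.49), Zm00001d028360 (0.45), Zm00001d010920 (0.36) and Zm00001d041352 (0.30). Of these 10, 7 were among the listed genes and 3 were not. Several listed genes were picked by the study on these samples, so this overlap is not independent evidence. The unlisted Zm00001d031621 and Zm00001d045965 were each present in 30 of the 30 NAS-positive barcodes, and those barcodes held 22.2% and 33.8% of their UMIs. They were also found in 1435 and 1121 other barcodes of library 1. The ranking used a mean that includes NAS1, NAS2 and NAS9, which define the NAS-positive barcodes. Presence of the ranked genes there is therefore not independent evidence. Zm00001d019221 was detected in 22 barcodes, and in 11 of the 30 NAS-positive ones. In library 2 (5748 barcodes) r was lower for all of them, at 0.41 for NAS10 in 3 barcodes, 0.12 for Zm00001d049042 and 0.15 for Zm00001d049191. The 10 genes leading in library 2 had r of 0.14 to 0.16, and 1 of them, Zm00001d049191, was also among the 10 of library 1. NAS10 and Zm00001d019221 (0.27 in library 2) had higher values than these but were found in fewer than the 20 barcodes required there. Of the other 8 leading genes of library 1, 7 held ranks 3 (Zm00001d049191) to 606 (Zm00001d041352) of 16306 in library 2 and Zm00001d010920 held rank 4723.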

How the data were processed

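Protoplast pools were profiled as 2 libraries with 10x Genomics 3′ v3 chemistry. The authors made the deposited count matrices with Cell Ranger 3.1.0 (per the matrix header) from B73 RefGen_v4 gene IDs. The values are raw UMI counts per gene and barcode, not normalized. STAR and Seurat 3.1 are named in the submitters' processing notes. The members and gene lists were chosen with earlier results of these data known, and IDs and annotations of listed genes come from the study's tables. Named genes were the members, the fixed lists and the 10 genes most like the members' mean in each library (non-members found in at least 20 barcodes).

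UMIs were summed per library and class and tested with edgeR 4.0.16 (TMM, filterByExpr, library as a term because both sums of a library share 1 pool, Benjamini-Hochberg adjustment, threshold 0.05) and DESeq2 1.42.0. Genes defining a class were not tested, and 4 sums left 1 residual degree of freedom. The SE is the absolute log2 fold change over the square root of F. The p-values cover 2 libraries that share a label, and the SE does not measure the spread between them. edgeR's default quasi-likelihood fit was run first. It was replaced by the legacy=FALSE fit in both comparisons after its calls had been seen, because on simulated sums with 200 changed genes it made 113 to 209 false calls per draw for NAS-positive over NAS-free barcodes. The reported fit made 0 to 4 there and recovered 0% of 2- and 4-fold and 21.5% to 26.0% of 16-fold changes. For ME1 over PEP1 class, where the default made 0 to 12 false calls and recovered 49.5% to 54.0% of 4-fold changes, the reported fit made 0 and recovered 0% of 4-fold and 39.5% to 58.0% of 16-fold changes. In the simulation the default fit would therefore also have served for that comparison. The simulated sums, 3 draws per fold, took pooled gene means, a common dispersion and no library effect. How far these rates hold for the real sums was not tested.

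Intervals are exact at 95%, Clopper-Pearson for shares and Poisson for sums, and describe counting error alone. A sum of 0 was given an upper limit of 3 UMIs. Alternatives were the study's filter (over 1800 and under 7000 genes, under 4% chloroplast and under 0.75% mitochondrial UMIs, which left 4035 barcodes of library 1 and 3339 of library 2, more than the cells the study analysed, so the filter is its thresholds and not its cells), over 500 genes, a class rule of 4 times and at least 10 UMIs, other NAS thresholds, RLE factors, other low-count filters, no library term, DESeq2 and thinning to 3000 UMIs (seed 20210107). Sequences were not used here.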

Additional observations from a re-analysis of the deposited data

How the results depend on the processing

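For the ME1 class against the PEP1 class 2913 genes were called, and 9 of 10 alternatives stayed within 1.5 times of that, while the fit with no replicate block called 1752. The default quasi-likelihood fit, chosen as an alternative after seeing the data, called 4344. For NAS-positive over NAS-free barcodes the 0 calls became 1 (strict class rule; no low-count filter), 2 (study filter; RLE factors), 4 (1 or more NAS UMIs), 13 (10 UMIs in every sum), 23 (DESeq2), 33 (no replicate block) and 35 (default fit), and stayed at 0 with over 500 genes, 5 or more NAS UMIs and NAS10 counted in. The cause was not tested. Among named genes 133 tested values kept direction and side of the threshold, 39 gained a call, 3 lost one and 0 reversed. Of the values without 1 library, which have no test, 22 moved little and 8 moved more. The fit with no replicate block gave NAAT1 an adjusted p of 1.36e-05 and TAAT 0.000452 between NAS-positive and NAS-free barcodes. YS1 in the ME1 class had an adjusted p of 0.0788, and of 3.75e-05 to 0.182 over the alternatives. Leaving out a library left log2 ratios with no test, -3.08 in library 1 and -1.51 in library 2 for NAAT1 between the classes, and -3.40 and -1.30 for TAAT. Between NAS-positive and NAS-free barcodes they were 8.24 in library 1 and 8.53 in library 2 for NAAT1, and 6.39 and 2.93 for TAAT.

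Levels in CPM moved when thinned to 3000 UMIs for NAS1 (1.22 in library 1, 0.382 in library 2), NAS2 (1.94, 0.458) and NAAT1 in library 1 (46.6). Percentages of barcodes with NAS1, NAS2, NAS9, NAAT1 and TAAT in library 1 were 0.793, 0.793, 0.967, 10.0 and 22.9 with the study filter, 0.280, 0.323, 0.388, 3.12 and 6.77 when thinned, and 0.163, 0.191, 0.272, 1.36 and 3.46 at 3 or more UMIs. In library 2, NAAT1 and TAAT were in 2.46% and 15.9% with the filter, 0.916% and 5.22% when thinned, and 0.0655% and 0.885% at 3 or more UMIs, where NAS1 and NAS2 were in 0.0164%. The 10 highest barcodes of library 1 held 39.8% of NAAT1 and 25.1% of TAAT with the filter, and 81.5% of NAS2, 32.4% of NAAT1 and 19.6% of TAAT when thinned; in library 2 thinning gave 10.7% for TAAT.

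In library 1, co-detection at 3 or more UMIs rose to 100% for each synthase with NAAT1 and TAAT. It rose to 92.9% for NAS2 with NAS9 and to 75% for NAAT1 with TAAT. In library 2 it was 100% for each synthase with NAAT1 and TAAT and for NAS1 or NAS2 with other synthases. Each of these library 2 values was 1 of 1 barcode (exact interval 2.50 to 100). Thinned, library 1 gave 23.1% for NAS1 with NAS9, 93.3% and 100% for NAS2 with NAAT1 and TAAT, 100% and 88.9% for NAS9 with them, and library 2 gave 10.0% for NAAT1 with TAAT. With the study filter NAS9 with TAAT was 100% in library 2, which was 2 of 2 barcodes (exact interval 15.8 to 100). Depth limits the ME1 class (2012346 and 583108 UMIs) and the NAS-positive sum of library 2 (9645 UMIs).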
